A study of Caenorhabditis elegans with 9 samples.

Results

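The 10 genes described here make up the core of the Caenorhabditis elegans sex determination pathway and of the decision of germ cells to become sperm or oocytes: tra-1, tra-2, fem-1, fem-2, fem-3, fog-1, fog-2, fog-3, her-1 and gld-1. They were taken by their WormBase symbols, and all 10 matched a gene identifier among the 46926 genes of the count files. In this pathway the secreted ligand HER-1 inhibits the membrane receptor TRA-2, and TRA-2 in turn holds back the FEM proteins, which promote the destruction of TRA-1, a Gli-type zinc finger repressor that directs female development. Hermaphrodites make sperm first and oocytes later in the same germ line. Sperm formation needs tra-2 messages to be held back from translation by GLD-1 with FOG-2, the later switch to oocytes needs fem-3 messages to be held back by the FBF proteins and NOS-3, and FOG-1 and FOG-3 act at the end of the cascade to commit a germ cell to the sperm fate.

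The RNA came from whole bodies of synchronized young adults and was enriched for poly(A) tails. There were 3 libraries from wild type (WT), 3 from the genotype labelled UNC5 and 3 from the genotype labelled PATR1. The design describes the mutant strain as unc-5(Cys348*), a stop-codon allele of the netrin receptor gene unc-5, compared with wild type to find genes whose RNA differs. The labels do not say which mutant group carries that allele, what PATR1 stands for, which sex the animals were, or whether the replicates were separate cultures, so the p-values below rest on the spread among libraries alone, and that spread could be purely technical.

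Each library held between 38673206 and 60642199 reads counted to genes, and 17512 genes, all 10 pathway genes among them, had enough reads to be tested. Levels are in CPM, read counts scaled to the size of the library, and log2 fold changes are given ± SE of an edgeR quasi-likelihood fit with p-values adjusted over all tested genes. A gene is said to have risen or fallen where that adjusted p was below 0.05. Such calls were common here: 76.8% of all tested genes passed in UNC5 against WT, 83.6% in PATR1 against WT and 78.7% in PATR1 against UNC5. unc-5 itself stood at 17.8 ± 0.968 CPM in WT, 10.1 ± 0.224 in UNC5 and 13.5 ± 0.63 in PATR1 (SD, n = 3 each). Reads with no place in the genome made up 6.02% of all reads in PATR1 replicate 1, against 2.86% and 3.43% in the other PATR1 libraries and under 1% in the rest. The libraries are of whole animals, so fewer cells of a type and less RNA per cell cannot be told apart in any of the results below.

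The 10 genes are protein-coding and lie apart on 5 chromosomes of the WBcel235 build. On chromosome I are fog-1 (WBGene00001481, 3211046 to 3217267, plus strand), gld-1 (WBGene00001595, 7695681 to 7698222, plus) and fog-3 (WBGene00001483, 10016765 to 10018121, plus), and on chromosome II is tra-2 (WBGene00006605, 6955384 to 6965673, minus). Chromosome III holds fem-2 (WBGene00001412, 632019 to 634626, minus) and tra-1 (WBGene00006604, 11170890 to 11195201, minus), chromosome IV holds fem-1 (WBGene00001411) and fem-3 (WBGene00001413, 9104966 to 9107607, plus), and chromosome V holds her-1 (WBGene00001842, 9697015 to 9702035, plus) and fog-2 (WBGene00001482, 20199254 to 20200648, plus).

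The pathway genes differed widely in level. Per kilobase of exon, gld-1 was the most abundant in WT at 274 ± 7.07 CPM per kb, and her-1 the least at 0.54 ± 0.0676 (SD, n = 3). Between them came fem-2 (35.4), fem-1 (23.6), tra-1 (22.3), fem-3 (16.9), tra-2 (9.38), fog-2 (8.08), fog-1 (5.90) and fog-3 (5.25), each in mean CPM per kb, and no neighbours in this order overlapped across the 3 WT libraries. The order changed in both mutant groups. fem-3 moved from rank 5 in WT to rank 3, ahead of fem-1 and tra-1, at 28.5 ± 0.773 CPM per kb in UNC5 and 43.3 ± 0.768 in PATR1. fog-2 and tra-2 overlapped in both mutant groups, at 12.3 and 12.1 CPM per kb in UNC5 and 16.1 and 14.1 in PATR1. The spread between libraries of a group was 0.678% to 8.59% of the mean for all genes except her-1, where it was 12.5% to 20.4%.

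**Figure D1:**
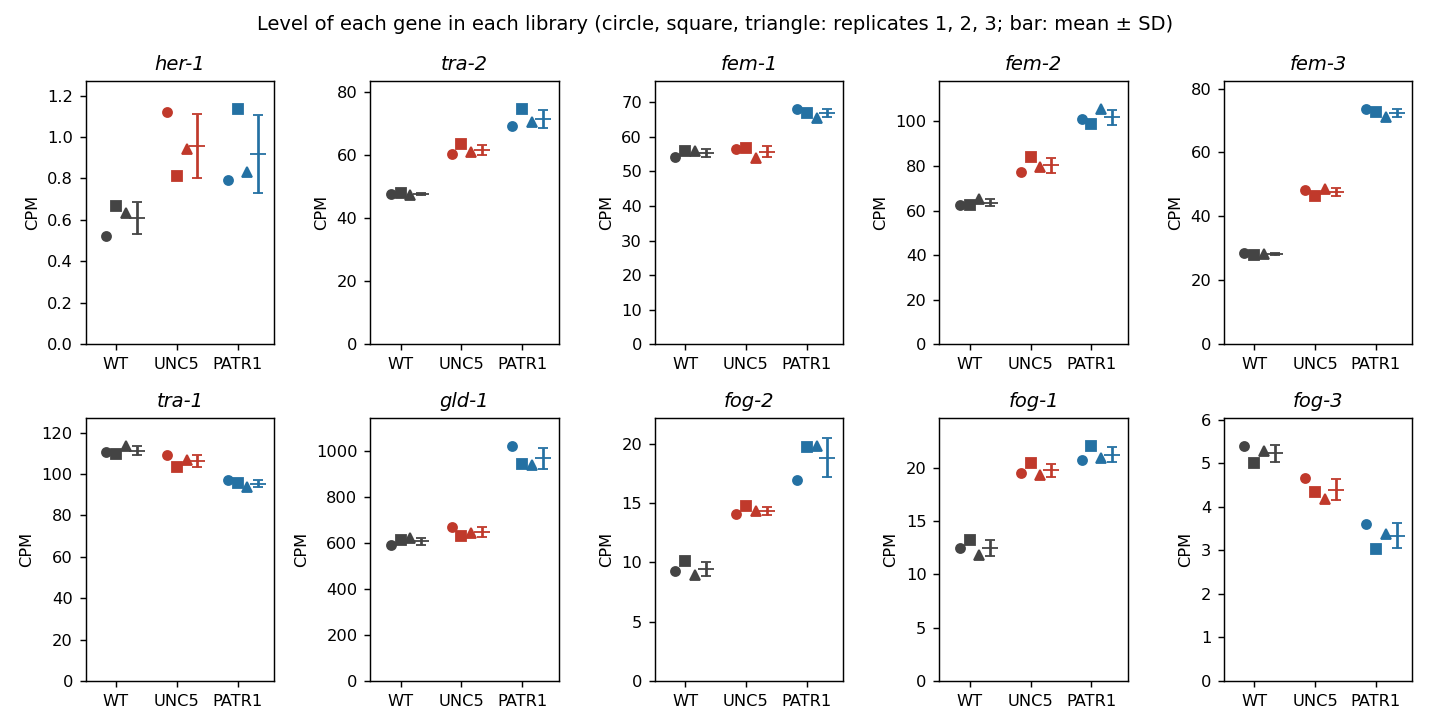
Level of each pathway gene in each of the 9 libraries, in CPM (vertical axes start at 0 and differ between panels), by genotype. Circles, squares and triangles are replicates 1, 2 and 3 and the bars mean ± SD; fem-3 climbs from about 28.2 CPM in WT to 47.7 in UNC5 and 72.4 in PATR1, while fog-3 goes down from 5.23 to 4.4 and 3.34 CPM.

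her-1, the ligand gene whose product drives male development, was near the limit of detection, with 31, 40 and 40 reads in the WT libraries, 44, 33 and 43 in UNC5 and 35, 44 and 44 in PATR1. In CPM these were 0.523, 0.669 and 0.635 in WT, 1.1, 0.811 and 0.941 in UNC5, and 0.792, 1.13 and 0.831 in PATR1. All mutant libraries lay above all WT libraries, and the mutant groups overlapped with each other. her-1 rose in UNC5 (log2 fold change 0.65 ± 0.19, adjusted p = 0.0035) and in PATR1 (0.57 ± 0.19, adjusted p = 0.0078). Neither call was made by DESeq2 (adjusted p = 0.055 in each comparison), and the PATR1 call was lost without PATR1 replicate 2 (0.42, adjusted p = 0.072).

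tra-2, which encodes the receptor that HER-1 inhibits and which promotes female fate, had 47.5, 47.8 and 47.1 CPM in WT, 60.4, 63.2 and 60.8 in UNC5 and 69.1, 74.4 and 70.4 in PATR1. The 3 groups were fully apart, with PATR1 highest. The rise was 1.29-fold in UNC5 (log2 fold change 0.37 ± 0.037, adjusted p = 8.2e-11) and in PATR1 1.5-fold (0.59 ± 0.036, adjusted p = 6.0e-16), and PATR1 was above UNC5 by 0.21 ± 0.036 (adjusted p = 3.6e-06). A stretch of 26 exon bases of tra-2 is shared with ceh-38 on the opposite strand, 0.514% of its exon length, and no other pathway gene shares exon bases with another gene.

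The masculinising fem genes moved to unequal degrees. fem-1, which encodes an ankyrin repeat protein that brings TRA-1 to a ubiquitin ligase, had 54.1, 55.8 and 56.1 CPM in WT, 56.4, 56.8 and 53.9 in UNC5 and 68.0, 67.1 and 65.6 in PATR1. Its UNC5 libraries overlapped with WT (log2 fold change 0.01 ± 0.036, adjusted p = 0.81), and it rose in PATR1 over WT (0.27 ± 0.035, adjusted p = 1.8e-08) and over UNC5 (0.26 ± 0.036, adjusted p = 7.6e-08). fem-1 (chromosome IV, 5533140 to 5537962, minus strand, WBcel235) is the next protein-coding gene to unc-5 (5495664 to 5528338, same strand), with 4801 bases between them that hold 22 annotated 21ur small RNA genes.

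fem-2, which encodes a protein phosphatase of the same complex, had 62.7, 62.6 and 65.2 CPM in WT, 77.3, 83.9 and 79.6 in UNC5 and 101, 98.9 and 105 in PATR1. The groups did not overlap. The rise in UNC5 was 1.26-fold (log2 0.34 ± 0.036, adjusted p = 4.8e-10), that in PATR1 1.60-fold (0.68 ± 0.035, adjusted p = 7.1e-18), and the step from UNC5 to PATR1 was 0.34 ± 0.036 (adjusted p = 2.6e-10).

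fem-3, the gene whose message is repressed to end sperm formation, changed most of the 10 genes in each comparison. It stood at 28.6, 27.8 and 28.3 CPM in WT, 48.4, 46.2 and 48.6 in UNC5 and 73.5, 72.8 and 71.0 in PATR1, from 1660 to 3760 reads per library. The groups were widely separated. Against WT the UNC5 libraries were 1.69-fold higher (log2 0.76 ± 0.038, adjusted p = 5.0e-18), the PATR1 libraries 2.57-fold (1.36 ± 0.037, adjusted p = 3.6e-25), and it was 1.52-fold higher in PATR1 than in UNC5 (0.60 ± 0.037, adjusted p = 8.0e-16).

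tra-1, the terminal regulator whose product represses male genes, had 111, 110 and 114 CPM in WT, 109, 103 and 107 in UNC5 and 97.2, 95.5 and 93.5 in PATR1. It fell in PATR1 to 85.7% of WT (log2 fold change -0.22 ± 0.032, adjusted p = 1.4e-07) and was below UNC5 there by the fit (-0.16 ± 0.032, adjusted p = 5.3e-05). In UNC5 the difference from WT was -0.06 ± 0.032 (adjusted p = 0.066), and it passed with relative log expression factors (-0.17, adjusted p = 2.6e-05).

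Among the germ line genes, gld-1, which encodes an RNA-binding protein of meiotic germ cells, had 591, 612 and 622 CPM in WT, 671, 629 and 643 in UNC5 and 1024, 946 and 941 in PATR1. The PATR1 libraries stood well above the other 6, which lay close together. The rise in PATR1 was 1.60-fold (log2 fold change 0.67 ± 0.037, adjusted p = 2.7e-17). The UNC5 difference of 0.09 ± 0.037 (adjusted p = 0.026) depended on scaling: under relative log expression factors it was -0.01 (adjusted p = 0.8), under scaling by library size only 0.04 (adjusted p = 0.33) and with every counted gene kept it passed as a fall (-0.08, adjusted p = 0.046), and the call was also lost without WT replicate 1 or UNC5 replicate 1 (0.07 each, adjusted p = 0.13 and 0.14). PATR1 was above UNC5 by 0.58 ± 0.037 (adjusted p = 2.2e-15).

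fog-2, whose F-box protein binds GLD-1 on tra-2 messages and is needed for sperm in hermaphrodites but not in males, had 9.28, 10.1 and 8.92 CPM in WT, 14.1, 14.7 and 14.3 in UNC5 and 17.0, 19.7 and 19.8 in PATR1. The 3 groups were apart. fog-2 was 1.52-fold higher in UNC5 than in WT (log2 0.61 ± 0.064, adjusted p = 3.8e-10) and 2.00-fold higher in PATR1 (1.00 ± 0.061, adjusted p = 4.6e-16), with PATR1 0.39 ± 0.061 above UNC5 (adjusted p = 7.0e-07). ftr-1, a related F-box gene, lies 1012 bases away on the same strand of chromosome V. It moved like fog-2, from 5.56 ± 0.236 CPM in WT to 7.20 ± 0.135 in UNC5 (log2 fold change 0.37, adjusted p = 3.4e-05) and 10.5 ± 0.759 in PATR1 (0.92, adjusted p = 7.0e-14). Reads that fit both genes equally well are counted for neither, so the level of each is uncertain.

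The genes that commit germ cells to sperm went opposite ways. fog-1, which encodes a cytoplasmic polyadenylation element binding protein, had 12.5, 13.2 and 11.8 CPM in WT, 19.5, 20.5 and 19.3 in UNC5 and 20.7, 22.1 and 21.0 in PATR1. It rose in UNC5 by 0.66 ± 0.053 on the log2 scale (1.58-fold, adjusted p = 7.0e-13), in PATR1 1.70-fold (0.77 ± 0.052, adjusted p = 8.6e-15). The mutant groups differed by 0.10 ± 0.052 (adjusted p = 0.072), which passed with relative log expression factors (0.15, adjusted p = 0.0087).

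fog-3, which encodes a Tob family protein, had 5.4, 5.02 and 5.28 CPM in WT, 4.66, 4.35 and 4.18 in UNC5 and 3.6, 3.04 and 3.38 in PATR1, from 118 to 333 reads per library. The groups did not overlap, and PATR1 was lowest. fog-3 fell in UNC5 to 84.0% of WT (log2 fold change -0.25 ± 0.083, adjusted p = 0.0064) and in PATR1 to 63.8% (-0.64 ± 0.086, adjusted p = 4.1e-08), and it was lower in PATR1 than in UNC5 (-0.39 ± 0.094, adjusted p = 0.00042).

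Counted together, 7 of the 10 genes rose in UNC5 against WT, fog-3 fell, and tra-1 and fem-1 did not pass, with a median log2 fold change of 0.36 beside 0.16 for all tested genes. The split was 6 higher and 3 lower under relative log expression factors, 6 and 2 under scaling by library size only, 6 and 4 with no filter on low counts and 5 and 3 under DESeq2. In PATR1 all 10 passed, 8 higher and 2 lower (tra-1 and fog-3), with a median of 0.63 beside -0.11 for all tested genes, and 9 or 10 passed as single libraries were left out (her-1 was lost without PATR1 replicate 2, and 10 passed without replicate 1). DESeq2 called 7 higher and 2 lower. Over all tested genes, 49.8% were called higher and 27% lower in UNC5 (7072 and 5722 genes under relative log expression factors, 8727 and 4728 under TMM), and 38.7% and 44.9% in PATR1. Between the mutant groups, 6 genes were higher and 2 lower in PATR1 than in UNC5, and her-1 and fog-1 did not pass, against 37.8% higher and 40.9% lower over all tested genes. The libraries of the groups compared were apart for 9 of the 10 genes in UNC5 against WT, for 10 in PATR1 against WT and for 9 in PATR1 against UNC5, where 77.9%, 84.0% and 79.5% of all tested genes were. The authors' stated threshold adds an absolute log2 fold change above 1, which 20.8% of all tested genes met in UNC5 and 16.5% in PATR1. None of the 10 met it in UNC5, and fem-3 and fog-2 did in PATR1, fog-2 only just, since its log2 fold change ranged from 0.95 to 1.07 as single libraries were left out. Both comparisons with WT share the WT libraries.

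**Figure D2:**
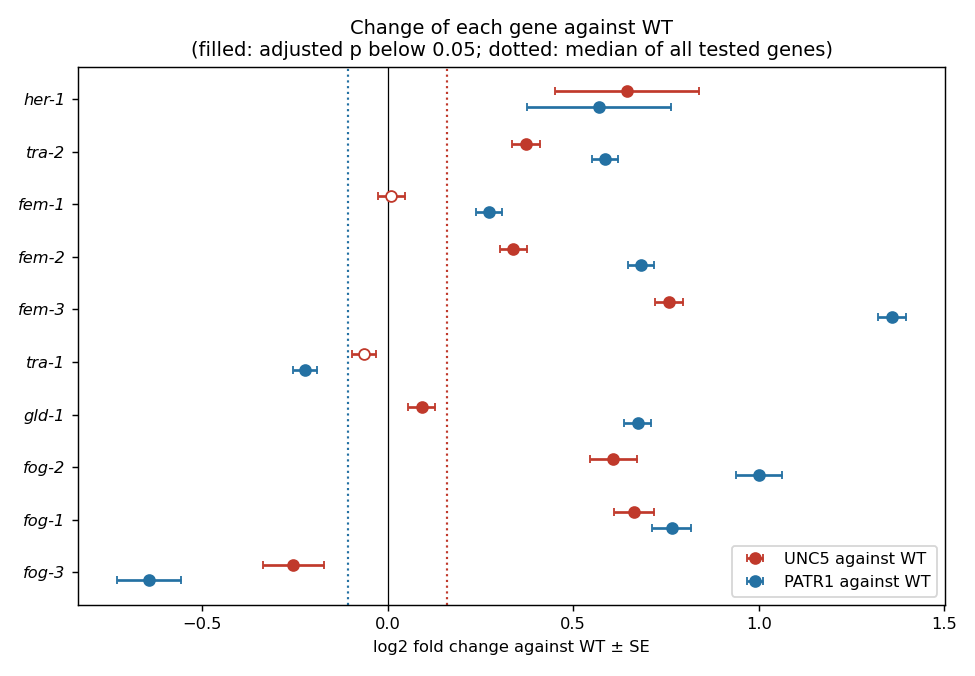
Log2 fold change ± SE against WT of each pathway gene (vertical axis) in UNC5 (red) and PATR1 (blue); filled points passed an adjusted p below 0.05, open points did not, and dotted lines mark the median of all tested genes. fem-3 lies farthest right in both, at 0.76 and 1.36, fog-3 farthest left, at -0.25 and -0.64, and gld-1 in UNC5, at 0.09, changes side with other scaling.

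The balance between opposing genes was read from ratios of reads within a library, which do not depend on how libraries are scaled. For every 100 tra-2 reads there were 60.2, 58.1 and 60.0 fem-3 reads in WT, 80.1, 73.1 and 79.8 in UNC5 and 106, 97.8 and 101 in PATR1. The ratio of this masculinising to this feminising message was thus apart in all 3 groups and highest in PATR1, by 0.39 on the log2 scale in UNC5 over WT, 0.77 in PATR1 over WT and 0.39 in PATR1 over UNC5. An exact two-sided permutation test gave p = 0.1 for each, the smallest value that 3 against 3 libraries allow.

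For every 100 gld-1 reads there were 0.914, 0.820 and 0.850 fog-3 reads in WT, 0.694, 0.691 and 0.650 in UNC5 and 0.351, 0.321 and 0.359 in PATR1. The log2 difference from WT was -0.34 in UNC5 and -1.32 in PATR1, and PATR1 was below UNC5 by 0.98 (groups apart in each comparison, exact permutation p = 0.1 each). fog-1 reads per 100 gld-1 reads were 2.11, 2.16 and 1.90 in WT, 2.90, 3.26 and 3.01 in UNC5 and 2.02, 2.33 and 2.23 in PATR1. The UNC5 libraries stood above all others (0.57 over WT, exact permutation p = 0.1), while PATR1 and WT overlapped (0.09, exact permutation p = 0.4).

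**Figure D3:**
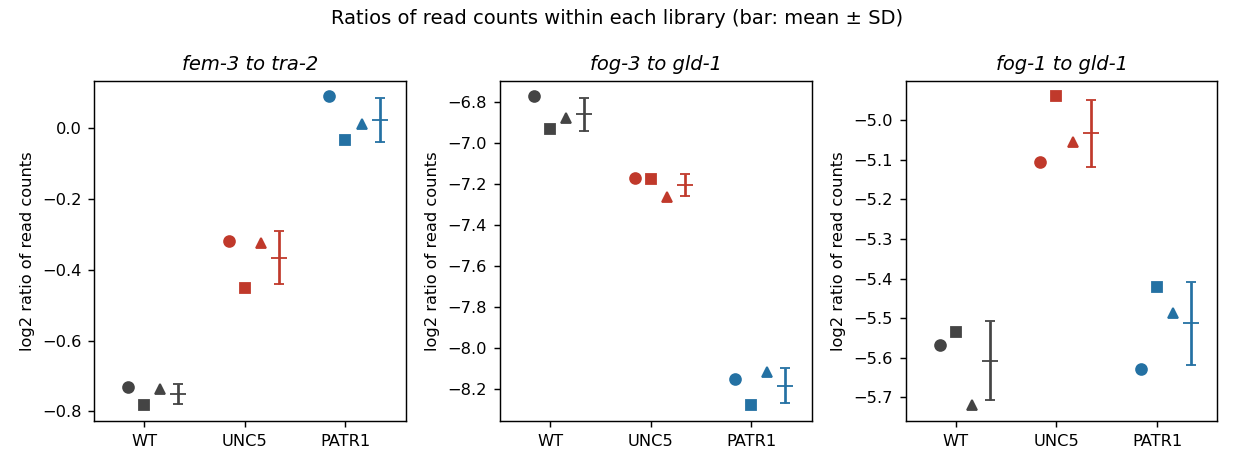
Log2 ratio of read counts within each library for fem-3 to tra-2, fog-3 to gld-1 and fog-1 to gld-1, by genotype, with mean ± SD beside the 3 libraries. From WT to UNC5 to PATR1 the mean log2 ratio of fem-3 to tra-2 goes from -0.75 to -0.37 to 0.02 and that of fog-3 to gld-1 from -6.86 to -7.20 to -8.18, while that of fog-1 to gld-1 is highest in UNC5 at -5.03.

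Markers of the gonad moved with the genotypes too, and their part in the changes above was not tested. Of 17 tested sperm markers all 17 fell in UNC5, each by more than 2-fold, and 16 fell in PATR1, none by more than 2-fold. Their summed level was 652 to 677 CPM in WT, 144 to 149 in UNC5 and 453 to 457 in PATR1. The sperm phosphatase gene gsp-3 went from 66.9 ± 2.12 CPM in WT to 13.2 ± 0.664 in UNC5 and 45.6 ± 1.30 in PATR1, and smz-1 from 63.5 ± 1.18 to 10.5 ± 0.475 and 33.0 ± 1.37 CPM. The sperm marker sum was thus lowest in UNC5, whereas fog-3 was lowest in PATR1.

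All 11 oocyte markers rose in both mutant groups, and their sum was 3719 to 3872 CPM in WT, 5413 to 5548 in UNC5 and 7036 to 7233 in PATR1. chs-1, which makes eggshell chitin, rose 1.92-fold in UNC5 and 2.27-fold in PATR1. General germ cell markers had no stable split in UNC5, with 5 of 15 higher and 5 lower (3 and 7 under relative log expression factors, 2 and 10 with only the 6 libraries compared, and 1 and 10 with no filter on low counts), glh-1 among the latter (1.55-fold), and their sum was 93.0% of that in WT. In PATR1 all 15 rose and the sum was 150.0% of that in WT. Somatic gonad markers summed to 1702 to 1767 CPM in WT, 1804 to 1838 in UNC5 and 1735 to 1811 in PATR1, with 4 of 10 higher and 3 lower in UNC5 (2 and 5 under relative log expression factors) and 3 higher and 4 lower in PATR1 (3 and 6).

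Early embryo markers were scarce, with a sum of 1.24 to 1.37 CPM in WT, 2.75 to 3.54 in UNC5 and 4.21 to 4.57 in PATR1, and only 6 of 10 could be tested, 5 of which rose in each mutant group (4 in UNC5 and 3 in PATR1 under DESeq2). Markers of male neurons and seminal tissue summed to 3.27 to 3.5 CPM in WT, 2.74 to 3.39 in UNC5 and 2.45 to 2.65 in PATR1. Only 4 of these 9 could be tested, and 1 rose and 1 fell in each mutant group. plg-1 rose in UNC5 (log2 fold change 1.38, adjusted p = 0.0021) and in PATR1 (1.52, adjusted p = 0.00046). try-5 fell in UNC5 (-0.85, adjusted p = 0.0007) and cwp-4 in PATR1 (-0.78, adjusted p = 5.4e-06). The defining male neuron genes lov-1 and pkd-2 had group means of at most 0.228 CPM.

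Taken per summed germ cell markers in the same library, fem-3 was higher than in WT by 0.86 on the log2 scale in UNC5 and by 0.78 in PATR1, and fog-1 by 0.77 and 0.18, with the libraries of each mutant group apart from WT. For gld-1 this difference was 0.20 in UNC5, and in PATR1 it was 0.09 with the groups overlapping. tra-2 (0.00), fem-2 (0.10) and her-1 (-0.00) also overlapped with WT in PATR1 on this scale. In UNC5 the same genes were higher with the groups apart, by 0.48, 0.44 and 0.75. fog-2 was higher by 0.71 in UNC5 and 0.41 in PATR1, with the groups apart. fem-1 (0.12) and tra-1 (0.04) overlapped with WT in UNC5. In PATR1 they were lower with the groups apart, fem-1 by 0.31 and tra-1 by 0.81. fog-3 was lower by 1.24 in PATR1 with the groups apart, and in UNC5 the difference of -0.15 overlapped with WT.

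Per summed oocyte markers the picture differed. fem-3 was still higher than in WT, by 0.22 in UNC5 and 0.45 in PATR1, with the groups apart. tra-2 (-0.17 and -0.33), fem-1 (-0.53 and -0.64), fem-2 (-0.20 and -0.23), gld-1 (-0.45 and -0.24), tra-1 (-0.60 and -1.13) and fog-3 (-0.79 and -1.56) were lower than in WT in UNC5 and PATR1, also with the groups apart. fog-1 was higher in UNC5 (0.13, groups apart) and overlapped with WT in PATR1 (-0.14), and fog-2 and her-1 overlapped with WT in both. Per summed sperm markers, whose sum fell to 22.2% of WT in UNC5 and 68.9% in PATR1, all 10 genes were higher in UNC5. The groups were apart for each, from 1.92 for fog-3 to 2.93 for fem-3. In PATR1 the fog-3 difference of -0.11 overlapped with WT. The other genes were higher there with the groups apart, from 0.32 for tra-1 to 1.90 for fem-3.

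**Figure D4:**
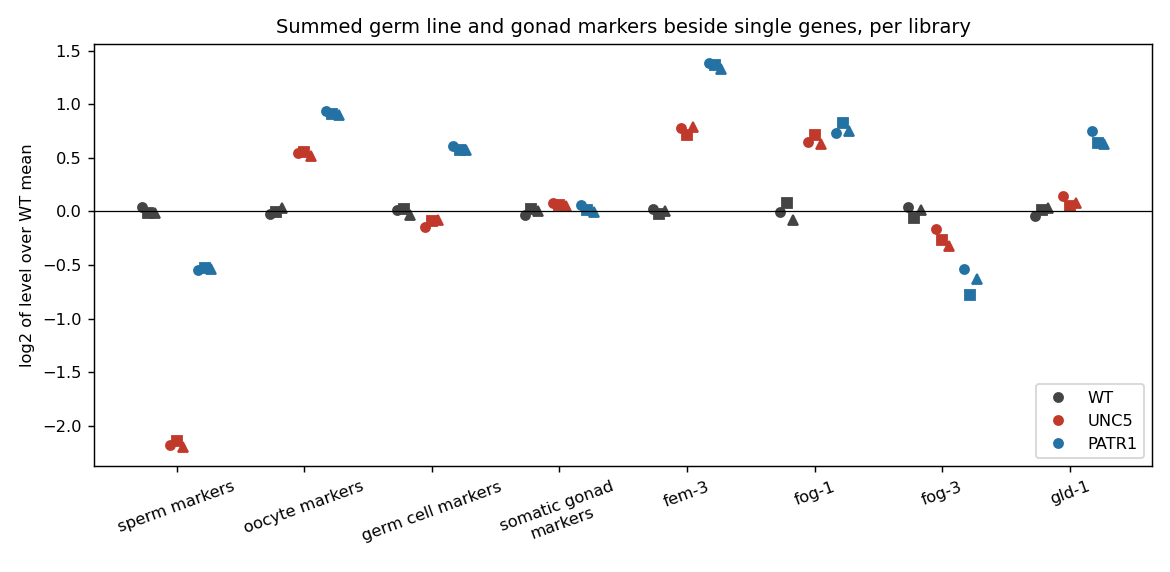
Level in each library as log2 of its ratio to the WT mean, for the summed sperm, oocyte, germ cell and somatic gonad markers and for fem-3, fog-1, fog-3 and gld-1; symbols are libraries and colours genotypes. The sperm marker sum drops to 22.2% of WT in UNC5 and 68.9% in PATR1, the oocyte sum rises to 145% and 188%, and fog-1 rises while fog-3 falls in both.

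The genes around the core pathway were described as lists. For comparison, 49.8% of all tested genes were called higher in UNC5 and 38.7% in PATR1, with median log2 fold changes of 0.16 and -0.11. Upstream, the X chromosome counting genes and the sdc genes above her-1 rose in 7 of 8 cases in UNC5 (median log2 fold change 0.41) and in 8 of 8 in PATR1 (0.60), and none fell. sea-1, an autosomal T-box gene of the X to autosome count, changed most, from 7.72 ± 0.431 CPM in WT to 16.5 ± 0.651 in UNC5 (log2 fold change 1.10, adjusted p = 4.8e-17) and 22.8 ± 1.26 in PATR1 (1.56, adjusted p = 1.0e-21). The homeobox gene ceh-39, an X signal element, rose 1.81-fold and 2.07-fold, and the nuclear receptor gene sex-1 1.44-fold and 1.57-fold. xol-1, the switch that these genes set, stood at 0.952 ± 0.0974 CPM in WT and 1.07 ± 0.0466 in UNC5 (adjusted p = 0.36), and rose to 1.54 ± 0.142 in PATR1 (adjusted p = 4.7e-05).

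Of 7 genes for modifiers of TRA-2, TRA-1 and the FEM proteins, 6 rose in UNC5 (median 0.35) and 5 in PATR1 (0.41), and none fell. cul-2, the cullin of the ubiquitin ligase that the FEM proteins join, went from 173 ± 2.44 CPM in WT to 188 ± 0.815 in UNC5 (log2 fold change 0.12, adjusted p = 0.00057, but 0.02 and 0.59 under relative log expression factors) and 229.9 ± 5.05 in PATR1. rbx-1, its RING subunit, rose 1.44-fold and 1.70-fold, and the F-box gene sel-10 1.19-fold and 1.47-fold. tra-3, the calpain protease that cleaves TRA-2, passed in neither (31.5 ± 0.84, 32.9 ± 0.549 and 32.4 ± 0.246 CPM).

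Of 21 tested RNA regulators of the switch, 14 rose and 2 fell in UNC5 (median 0.12 beside 0.16 for all tested genes). That split was not stable. It was 9 and 5 under relative log expression factors, and 8 and 7 both with no filter on low counts and with only the 6 libraries compared. In PATR1, 20 of the 21 rose and none fell (median 0.56). daz-1, which encodes an RNA-binding protein needed for oogenesis, rose 1.36-fold and 1.93-fold, and gld-3, whose product counteracts FBF, 1.37-fold and 1.88-fold. The repressors of fem-3 differed between the mutant groups: fbf-2 fell in UNC5 (24.7 ± 0.651 to 19.7 ± 0.981 CPM) and rose in PATR1 (log2 fold change 0.28, adjusted p = 8.9e-07), and fbf-1 was 21.2 ± 0.614 CPM in WT, 21.6 ± 0.516 in UNC5 and 33.9 ± 2.61 in PATR1, of which the PATR1 difference passed, with both higher in PATR1 than in UNC5 (adjusted p = 5.3e-13 and 3.9e-13). fbf-1 and fbf-2 are near copies, as are gsp-3 and its marker neighbour gsp-4, so reads that fit both are in neither count and their levels are uncertain. sup-26, a repressor of tra-2 translation, went the other way, from 122 ± 2.52 CPM in WT up to 188 ± 6.33 in UNC5 and 118 ± 5.78 in PATR1 (adjusted p = 0.15 against WT, and 0.0065 as a fall under relative log expression factors).

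Downstream of the switch, spe-44, a transcriptional regulator of sperm genes, fell from 31.2 ± 0.667 CPM in WT to 12.3 ± 0.199 in UNC5 (log2 fold change -1.34, adjusted p = 1.4e-21) and 20.5 ± 1.17 in PATR1 (-0.60, adjusted p = 1.5e-13). It was thus lowest in UNC5, like the sperm marker sum. The GATA factor gene elt-1 fell in both (1.10-fold and 1.36-fold), and cpb-1, a relative of fog-1 needed by spermatocytes, fell in UNC5 (1.10-fold) and rose in PATR1 (1.48-fold).

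All 12 listed messages bound by GLD-1 rose in both mutant groups. They are a chosen list without the 10 core genes, not the full set that GLD-1 binds. Their median log2 fold change was 0.61 in UNC5 and 0.99 in PATR1, beside 0.16 and -0.11 for all tested genes. The oocyte maturation gene oma-2 went from 133 ± 2.20 to 240.4 ± 5.35 and 307 ± 7.10 CPM, and gna-2, an enzyme of eggshell formation, from 42.7 ± 1.26 to 88.5 ± 1.39 and 94.2 ± 2.44 CPM. The rise was not particular to these messages. All 11 oocyte markers rose as well, with medians of 0.55 in UNC5 and 0.98 in PATR1, and 49.8% and 38.7% of all tested genes were called higher. Of 4 listed somatic genes that TRA-1 represses, 2 rose in UNC5 and none fell, and 1 rose and 1 fell in PATR1. mab-3, a male development gene, stood at 3.29 ± 0.268 CPM in WT and 3.66 ± 0.353 in UNC5 and fell to 1.91 ± 0.238 in PATR1 (adjusted p = 2.4e-07), while dmd-3 stood at 0.266 ± 0.094 CPM in WT, rose to 0.538 ± 0.0872 in UNC5 (adjusted p = 0.0011) and was 0.192 ± 0.0129 in PATR1 (adjusted p = 0.22). dmd-3 was scarcer in every group than her-1 and so near the limit of detection. The UNC5 count for this list fell from 2 to 1 under DESeq2. The cell death gene egl-1 rose in PATR1 (0.939 ± 0.0295 to 1.39 ± 0.0429 CPM, adjusted p = 0.00073).

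**Figure D5:**
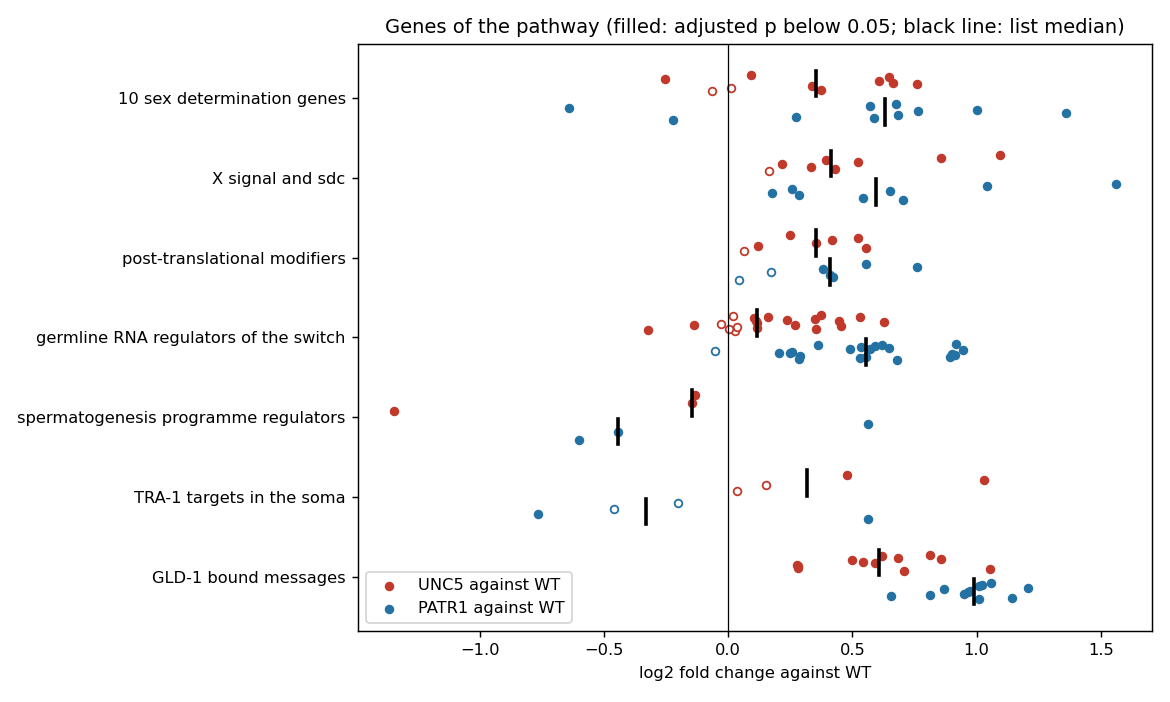
Log2 fold change against WT (horizontal axis) of every tested gene of the 10 core genes and of the 6 surrounding lists (vertical axis), in UNC5 (red) and PATR1 (blue); filled points passed an adjusted p below 0.05 and black lines are list medians. The listed GLD-1 bound messages all lie right of 0, with medians of 0.61 and 0.99. The sperm programme regulators have medians of -0.14 and -0.44.

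The genes whose profile over the 9 libraries was most like that of fem-3, by the distance between log2 CPM centred on each gene's mean, were the F-box gene fbxa-107 (distance 0.147, Pearson r = 0.998), the telomerase reverse transcriptase gene trt-1 (0.152, r = 0.997) and pqn-82 (0.189, r = 0.994). In mean CPM, trt-1 was at 14.6 in WT, 26.5 in UNC5 and 39.1 in PATR1, and fbxa-107 at 7.12, 12.1 and 19.5. Such likeness was common, since 309 of the 9037 genes compared had an r above 0.99 with fem-3, all points sharing the same 9 libraries.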

How the data were processed

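The deposited values are raw read counts per gene in 9 libraries. Per the submitters' processing notes, the authors used FastQC 0.11.9, cutadapt 3.5 and STAR 2.7.11b with WBcel235, and the design text names the WS288 release. Poly(A) RNA was enriched on magnetic beads, per the labels' protocols. Reverse-strand counts entered every result; their sum exceeded that of the forward strand 41.9-fold to 57.1-fold. Reads that were unmapped, multimapping (3.12% to 4.96% of all reads), ambiguous or in no gene stayed out. Positions and exon lengths came from Ensembl release 115 (WBcel235), which held 46918 of the 46926 identifiers.

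Genes were kept by filterByExpr (17512), scaled by TMM (factors 0.954 to 1.04) and fitted over all 9 libraries with the robust quasi-likelihood test of edgeR 4.0.16 in R 4.3.3, with Benjamini-Hochberg adjustment over all tested genes. CPM is a count over the scaled library size. A count ratio was compared by an exact permutation test. The 10 genes and the lists were chosen with earlier results of these data known, and 4 list genes matched no identifier. Outside the 10 genes, the text draws on up to 4 genes per list and comparison with the smallest adjusted p below 0.05, unc-5 and ftr-1; xol-1, tra-3, fbf-1, fbf-2, lov-1 and pkd-2 were added after their values were seen. Tested on simulated data for UNC5 against WT (17512 genes), 48 of 50 genes raised 1.5-fold and 46 of 50 lowered as much were recovered, and 15 unchanged genes passed. In that simulation all groups shared the WT means, few genes changed, and as many were raised as lowered. Genes with as few reads as her-1 were not among those changed. It therefore cannot give the error rate in data where most genes are called, unevenly in direction. The alternatives tried were DESeq2 1.42.0, a floor of 5 CPM in 3 libraries, no filter on low counts, scaling by relative log expression or by library size only, unstranded counts, a fit of just the 6 libraries in a comparison, a replicate block, and leaving out each library. Pairs of libraries of 1 group differed by 1.43 to 2.21 times counting error (median chi-square), so none was a duplicate. Python 3.11.15 with pandas 2.3.3 and matplotlib 3.10.9 made the tables and plots.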

Additional observations from a re-analysis of the deposited data

Results flagged for a closer look

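Reads on the strand opposite to a gene were not used above, and for several of the 10 genes their share was higher in every library of a mutant group than in every WT library. In UNC5 the mean share was 1.80% of the gene's reads for tra-1 (0.246% in WT), 1.69% for tra-2 (0.450%), 0.821% for fem-1 (0.0387%), 0.667% for fem-2 (0.0845%), 0.924% for fog-2 (0.0553%) and 1.18% for gld-1 (0.0911%). In PATR1 it was 0.691% for tra-1, 0.849% for tra-2, 0.293% for fem-1 and 0.367% for gld-1. The same shift appeared across the genome: over 3483 genes with at least 1000 reads in every library and no gene on the other strand, the median share was 0.0454% to 0.0765% in the WT libraries, 0.368% to 0.510% in UNC5 and 0.119% to 0.169% in PATR1. The share for fem-3 did not follow it, with 0.877% to 1.44% in WT and 0.887% to 1.47% in UNC5. In PATR1 it was 0.458% to 0.581%, with every library below every WT library. That share is taken over reads on both strands, and fem-3 itself rose in both mutant groups. Its opposite-strand reads numbered 15, 21 and 26 in WT, 17, 28 and 23 in UNC5 and 19, 13 and 19 in PATR1, at unequal depths. The lower share in PATR1 thus need not mean fewer opposite-strand reads. fog-3 and her-1 had no opposite-strand reads in any library. Some of the shares above rest on few reads and are imprecise. fog-2 had 0, 1 and 0 opposite-strand reads in the WT libraries and 4, 6 and 7 in UNC5, and fem-1 had 1, 0 and 3 in WT and 22, 11 and 25 in UNC5. Groups of 3 libraries are too small for a test of single outlying libraries.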

How the results depend on the processing

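The counts of called genes among the 10 stayed within 7 to 10 in UNC5 against WT, 9 or 10 in PATR1 against WT and 8 or 9 in PATR1 against UNC5 under every alternative run, including a filter at 5 CPM that drops her-1. Of 507 values of single genes under an alternative, 471 kept their direction and call, 8 lost the call, 12 gained it and 16 changed sign; the cause was not tested. In UNC5 against WT the log2 fold change of gld-1 was -0.011 under relative log expression factors, -0.076 with no filter on low counts, -0.011 under DESeq2 and -0.060 with only the 6 libraries compared. That of fem-1, which did not pass, was -0.093, -0.16, -0.093 and -0.14 under the same settings, each of which called it lower, -0.042 by library size only, -0.054 at 5 CPM and -0.011 to 0.034 as single libraries were left out. her-1 in PATR1 against UNC5, which did not pass, was 0.074 with no filter and -0.23 to 0.044 as single libraries were left out. Scaling came with a shift of the median of all tested genes in UNC5 against WT, which was 0.16 with TMM, 0.06 by relative log expression and 0.11 by library size only, and in PATR1 against WT -0.11, -0.16 and -0.23. tra-1 in UNC5 against WT passed as lower in 8 alternatives. Of the 6 pathway list counts, with higher and lower calls added together, only that of TRA-1 targets moved by more than 1.5 times: from 2 to 1 in UNC5 without a filter, with DESeq2 and with only the 6 libraries compared, and to 0 in both UNC5 and PATR1 at 5 CPM, where fewer genes are tested. Such totals hide the split of the RNA regulators in UNC5. It went from 14 higher and 2 lower to 8 and 7, both without a filter and with only the 6 libraries compared. Of the marker lists, the early embryo count in PATR1 went from 5 to 3 under DESeq2, and at 5 CPM no early embryo or male marker was tested. The log2 ratios kept their direction in all 72 values under an alternative. Same-numbered libraries did not deviate together (correlations -0.0429 to 0.0377, and 1 of 9 libraries correlated best with its own number), so no pairing by number was seen. A weak shared origin of same-numbered libraries could be missed this way. With the replicate block the counts were 8, 10 and 8, as without it. Depth limits her-1 most, at 31 to 44 reads per library.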
